A study of Aedes aegypti with 33 samples.

Results

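A set of 64 genes had lower mean read counts relative to depth in cultured Aedes aegypti Aag2 cells once fetal bovine serum (FBS) was withdrawn. This held in both Schneider's and L-15 medium, for some of them through 1 FBS library. By the centred log2 ratios defined below, the 64 stayed within 0.4 when heme was given to the serum-free cells. They were selected from the 19712 identifiers of the AaegL5 gene set. Counts were scaled by the total of each library to a common size (CPM, the usual unit of read counts relative to depth), and the log2 ratio of group means, with 1 CPM added to each, was centred on the median over genes with a mean of at least 5 CPM in that experiment. A gene was kept when the centred ratio of 0 μM heme over FBS was at most -0.4 in both media and the centred ratio of 10 μM over 0 μM heme lay within 0.4 of 0 in both. All 18 of the Aag2 libraries taken at 72 h entered this selection. The values from those libraries are therefore a description of what was selected, given without a test.

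Heme is an iron-bearing porphyrin that serves as a cofactor of oxygen carriers, cytochromes and peroxidases, and a female mosquito takes it up in bulk with each blood meal. FBS supplies cultured cells with growth factors, hormones, lipids, proteins and iron as well as with heme. Media without FBS were used in this study to deprive cells of heme. The genes described here are those for which returning heme alone kept the centred ratio to the serum-free culture within 0.4 of 0. That limit is as large as the smallest serum fall the rule admits. A member with a small fall can therefore regain much of it with heme, as AAEL019461 did in Schneider's medium.

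The tested conditions were Aag2 cells in serum-free Schneider's Drosophila medium with 10 μM heme or 0 μM heme, set against the same medium with 10% FBS, and the equivalent 3 groups in L-15 medium, all for 72 h. A20 cells, another Ae. aegypti line, were kept for 72 h in the serum-free medium SF900 II with 10 μM heme or 0 μM heme, set against L-15 medium with FBS, so that in this line serum and basal medium changed together and cannot be told apart. The A20 columns are headed RM, SFM and Heme without further explanation, and RM was read as the regular medium with FBS and SFM as the serum-free medium without heme, on which the direction of every A20 value rests. A further experiment gave Aag2 cells 20 μM heme for 48 h in Schneider's medium that still held FBS, set against the same medium without added heme. Polyadenylated RNA was sequenced from 3 biological replicates per group, 33 libraries in all, and by their labels the 48 h libraries were made with a kit sold for small RNA (TruSeq) and all others with NEBNext Ultra, whereas the methods of the study name TruSeq RNA v2 beside NEBNext. Libraries held 22860764 to 38002762 counts. Both lines are continuous cultures, and in such bulk samples fewer cells of a type and less RNA per cell cannot be told apart.

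The levels of the members spanned a wide range. Mean CPM over the libraries of an experiment ran from 0.298 to 299.0 in Schneider's medium (median 2.41) and from 0.0714 to 327.9 in L-15 medium (median 1.69). Only 17 members averaged at least 5 CPM in both media, and 47 were below that level in at least 1. The filter on low counts passed 49 of the 64 members in Schneider's medium, 47 in L-15 medium, 46 in A20 cells and 41 at 48 h.

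Few members had a described product. The study's annotation sheet was at hand only in part, for 1547 of the 19712 identifiers, and that part covers 11 of the 64 members, of which 3 carry a product name. AAEL001176 is annotated as S-adenosylmethionine decarboxylase, the enzyme that makes the aminopropyl donor for the polyamines spermidine and spermine (chromosome 2, 307819913 to 307857749, AaegL5). AAEL014523 is annotated as a neuroendocrine convertase, a subtilisin-like protease that cuts precursors of hormones and neuropeptides in the secretory pathway (chromosome 1, 150140028 to 150170019). AAEL001795 is listed as a putative orfY, a name that gives no function (chromosome 2, 376433346 to 376458113). No product name matched any of the 24 functional and cell type lists drawn up for these cells, and with so few names this count says nothing about the members.

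The pattern rested on different evidence in different members. Of the 64 genes, 10 still met the rule whichever 1 of the 18 libraries was left out, and 54 were lost without at least 1 library. Only 7 of these 10 averaged at least 5 CPM in both media. Another of the 10, AAEL018686, had 533, 1 and 41 counts with FBS in Schneider's medium. A single library thus held 93.6% of its summed FBS level there. Without Schneider FBS library 1, 22 members no longer met the rule, and without L-15 FBS library 3, 18 did not. A single FBS library held over 80% of the summed FBS level of 23 members in Schneider's medium and of 20 members in L-15 medium. All libraries of 0 μM heme were below all those with FBS for 32 of the 49 members tested in Schneider's medium, where 18.9% of all genes tested were, and for 33 of the 47 tested in L-15 medium, where 30.6% were. Both held for 28 of the 47 tested in both media, where 5.99% of all such genes did. With members that did not pass the filter on low counts, these were 34, 46 and 29 of the 64. Because the rule asked for lower means, these counts are read only as a measure of how many members show the selected direction in every library.

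**Figure D1:**
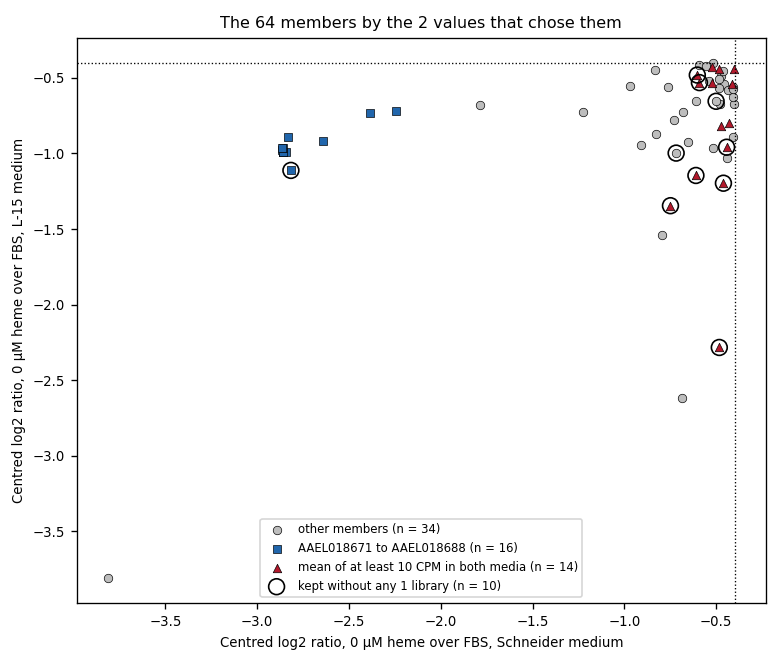
Each point is 1 of the 64 members, placed by the centred log2 ratio of 0 μM heme over FBS in Schneider's medium (x axis) and in L-15 medium (y axis), with dotted lines at the limits of -0.4. Red triangles are the 14 members with a mean of at least 10 CPM in both media, blue squares the 16 members with identifiers between AAEL018671 and AAEL018688, grey circles the others, and open rings the 10 members kept without any 1 library. The blue squares lie far to the left, and AAEL009469 sits alone at about -3.81 on both axes.

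All 14 members with a mean of at least 10 CPM in both media had every 0 μM heme library below every FBS library in both media. AAEL027408, a gene with no product name (chromosome 2, 218507954 to 218601735), had 259.0, 256.6 and 261.0 CPM in 10 μM heme, 267.0, 275.5 and 278.2 in 0 μM heme, and 360.9, 372.1 and 366.7 with FBS in Schneider's medium. In L-15 medium it had 212.7, 207.3 and 214.1 CPM in 10 μM heme, 262.3, 272.3 and 274.8 in 0 μM heme, and 617.1, 514.9 and 497.6 with FBS. The serum-free groups did not reach the FBS group in either medium, and the 10 μM heme libraries were all below the 0 μM heme libraries. The log2 fold change of 10 μM over 0 μM heme was -0.08 ± 0.029 (SE) in Schneider's medium and -0.35 ± 0.070 (SE) in L-15 medium. The log2 fold change of 0 μM heme over FBS was -0.42 ± 0.029 (SE) in Schneider's medium and -1.01 ± 0.071 (SE) in L-15 medium.

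The S-adenosylmethionine decarboxylase gene AAEL001176 had 103.3, 107.2 and 123.9 CPM in 10 μM heme, 120.7, 124.2 and 120.6 in 0 μM heme, and 177.7, 189.6 and 183.7 with FBS in Schneider's medium. In L-15 medium it had 172.1, 163.5 and 151.3 CPM in 10 μM heme, 210.0, 199.9 and 206.2 in 0 μM heme, and 480.2, 467.0 and 465.9 with FBS. The level without serum was 1.51-fold lower in 0 μM heme than with FBS in Schneider's medium and 2.29-fold lower in L-15 medium. Added heme did not bring it back in either medium, and in L-15 medium the 10 μM heme libraries were all below those of 0 μM heme. The convertase gene AAEL014523 had 57.18, 60.83 and 55.84 CPM in 10 μM heme, 60.18, 61.49 and 55.85 in 0 μM heme, and 90.78, 83.98 and 92.19 with FBS in Schneider's medium. Its L-15 values were 114.8, 101.4 and 102.3 CPM in 10 μM heme, 128.2, 120.4 and 130.0 in 0 μM heme, and 187.1, 186.5 and 173.9 with FBS. Its fall was of similar size in both media, 1.50-fold and 1.45-fold, and every serum-free library was below every library with FBS.

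AAEL025170, on an unplaced scaffold and with no product name, had 73.93, 70.18 and 72.82 CPM in 10 μM heme, 76.65, 93.18 and 88.25 in 0 μM heme, and 146.2, 137.6 and 145.3 with FBS in Schneider's medium. In L-15 medium it had 121.2, 123.4 and 114.7 CPM in 10 μM heme, 153.6, 147.4 and 155.7 in 0 μM heme, and 501.2, 373.8 and 330.1 with FBS. The FBS libraries of L-15 medium spread widely, but the lowest of them was still above every serum-free library. Its log2 fold change of 0 μM heme over FBS was -0.73 in Schneider's medium and -1.40 in L-15 medium.

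AAEL025015 showed the most unequal fall between media among the 14. In Schneider's medium it had 7.527, 9.792 and 8.821 CPM in 10 μM heme, 10.39, 8.922 and 9.972 in 0 μM heme, and 13.72, 15.31 and 12.54 with FBS. In L-15 medium it had 3.599, 4.787 and 4.05 CPM in 10 μM heme, 3.705, 4.307 and 4.368 in 0 μM heme, and 25.08, 22.45 and 26.09 with FBS. The level without serum was 1.42-fold lower in Schneider's medium and 5.95-fold lower in L-15 medium, and the difference between media was not tested, since the rule used both. AAEL002834 had 46.57, 45.29 and 50.34 CPM in 10 μM heme, 35.57, 40.1 and 38.43 in 0 μM heme, and 53.23, 50.57 and 51.96 with FBS in Schneider's medium. In L-15 medium it had 52.43, 56.32 and 60.78 CPM in 10 μM heme, 52.85, 46.67 and 53.25 in 0 μM heme, and 121.4, 117.8 and 126.4 with FBS. In Schneider's medium the 10 μM heme libraries of this gene lay between the other groups and just below those with FBS, with a centred ratio of 10 μM over 0 μM heme of 0.3604, close to the limit for a heme-indifferent gene.

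**Figure D2:**
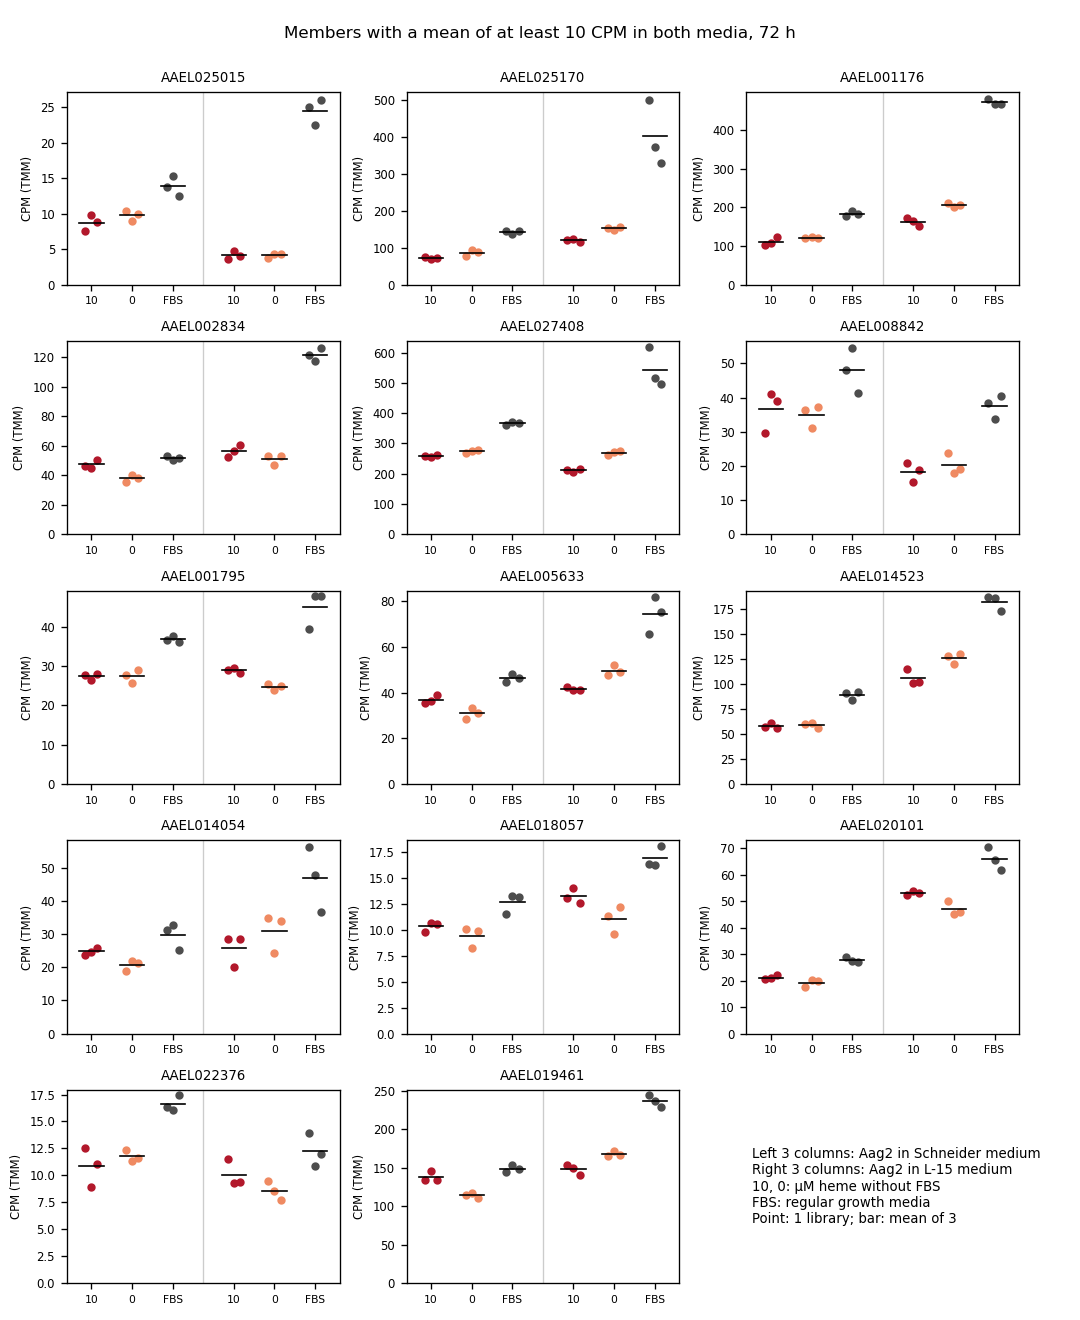
CPM after TMM scaling (y axis, from 0) of the 14 members with a mean of at least 10 CPM in both media, in Aag2 cells at 72 h, with 1 panel per gene ordered by the sum of both serum ratios. Columns run 10 μM heme, 0 μM heme and FBS, first in Schneider's and then in L-15 medium, each point is 1 library and each bar the mean of 3. In every panel the 0 μM heme points lie below the FBS points of the same medium.

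AAEL005633 had 28.6, 33.1 and 30.98 CPM in 0 μM heme against 44.63, 47.98 and 46.48 CPM with FBS in Schneider's medium, and 47.5, 51.88 and 49.08 CPM in 0 μM heme against 65.52, 81.9 and 75.31 CPM with FBS in L-15 medium, 1.50-fold lower in both. With 10 μM heme it had 35.5, 36.11 and 39.02 CPM in Schneider's medium, between the other groups. In L-15 medium it had 42.65, 41.27 and 41.06 CPM in 10 μM heme, below both other groups. AAEL019461 was the member nearest inside the Schneider serum limit, at -0.4015, with 114.1, 117.1 and 111.1 CPM in 0 μM heme and 144.5, 153.8 and 147.8 CPM with FBS. With 10 μM heme it had 133.3, 145.2 and 134.4 CPM there, above every 0 μM heme library and overlapping those with FBS. The log2 fold change of 10 μM over 0 μM heme was 0.27 ± 0.043 (SE), beside -0.38 for 0 μM heme over FBS. In L-15 medium its 10 μM heme libraries were all below those of 0 μM heme. AAEL008842, AAEL001795, AAEL014054, AAEL018057, AAEL020101 and AAEL022376 made up the 14 with log2 fold changes of 0 μM heme over FBS between -0.52 and -0.42 in Schneider's medium. In L-15 medium the log2 fold changes of the same genes were between -0.89 and -0.48.

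The limits of the rule fell within a continuous range of values. Next to AAEL019461 and AAEL021686 (-0.4034) inside the Schneider serum limit stood AAEL012226 (-0.399) and AAEL020160 (-0.3922) just outside it. For L-15 serum the nearest members were AAEL004188 (-0.4037) and AAEL021115 (-0.4155), and the nearest excluded genes AAEL009178 (-0.3977) and AAEL003763 (-0.3824). For heme in Schneider's medium AAEL022503 (-0.3989) and AAEL010289 (-0.3692) were inside and AAEL010059 (-0.4093) and AAEL009683 (0.4117) outside, and for heme in L-15 medium AAEL013388 (0.3929) and AAEL007831 (0.3896) were inside and AAEL001455 (0.4149) and AAEL019880 (0.4253) outside.

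The lowest ratios of all did not come from the well-counted genes. AAEL009469, with centred ratios of -3.81 in both media, had 10, 6 and 11 counts in 10 μM heme, 7, 10 and 7 counts in 0 μM heme, and 5, 3 and 1601 counts with FBS in Schneider's medium. In L-15 medium it had 12, 3 and 10 counts in 10 μM heme, 2, 15 and 7 counts in 0 μM heme, and 1031, 0 and 10 counts with FBS. In each medium 1 FBS library carried the difference, Schneider FBS library 3 with 99.5% of the summed FBS level and L-15 FBS library 1 with 99.1%, while the others overlapped the serum-free libraries.

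A run of 18 neighbouring identifiers, AAEL018671 to AAEL018688, held 16 of the 64 members, and no product or position was found for these in the files, in the part of the annotation sheet used or in the reference table. In Schneider FBS library 1 they had 529 to 586 counts each, with 529 to 535 in 14 of the 16 and exactly 529 in 6. The other FBS libraries of that medium had 1 to 19 and 3 to 71 counts. In L-15 medium FBS library 3 held 58 to 69 counts for each, against 2 to 15 in library 1 and 4 to 20 in library 2. AAEL018681 shows the pattern, with 1, 4 and 7 counts in 10 μM heme, 0, 4 and 3 counts in 0 μM heme, and 532, 3 and 41 counts with FBS in Schneider's medium. Its L-15 counts were 0, 3 and 3 in 10 μM heme, 3, 0 and 2 in 0 μM heme, and 2, 5 and 58 with FBS. With counts this nearly equal, the 16 members are not read here as 16 separate measurements, and whether they share reads was not tested. With both Schneider FBS library 1 and L-15 FBS library 3 absent, 51 genes met the rule, of which 34 were among the 64.

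**Figure D3:**
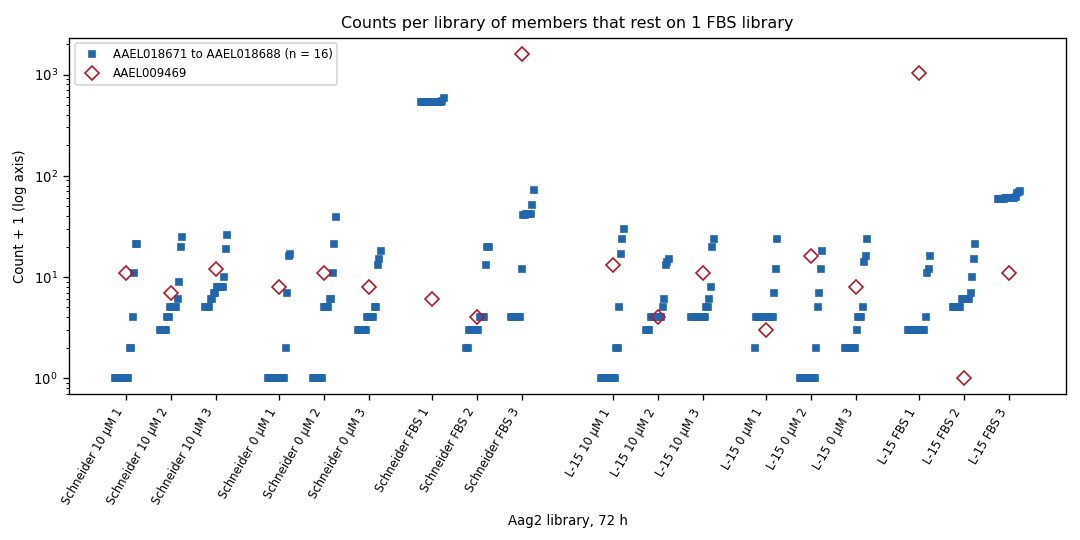
Counts with 1 added (y axis, log scale) in each of the 18 Aag2 libraries at 72 h (x axis), for the 16 members with identifiers between AAEL018671 and AAEL018688 (blue squares) and for AAEL009469 (red diamonds). The blue squares stand at 529 to 586 counts in Schneider FBS library 1 and at 58 to 69 in L-15 FBS library 3, and the red diamonds at 1601 counts in Schneider FBS library 3 and 1031 in L-15 FBS library 1.

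Calls here are by edgeR's quasi-likelihood test at an adjusted p under 0.0001, the threshold of the study, which itself used edgeR's exact test. For the libraries that the rule used, the counts of members called are given only as a description. In 0 μM heme against FBS, 5 of 49 members tested were lower in Schneider's medium, where 1.04% of all genes were, and 11 of 47 in L-15 medium, where 13.1% of all genes were. No member was called higher, where 1.46% of all genes were in Schneider's medium and 10.8% in L-15 medium. In 10 μM against 0 μM heme no member was called in either medium, where 17.1% and 18% of all genes were. At an unadjusted p under 0.05 there were 7 members in Schneider's medium, where 55.9% of all genes were, and 12 in L-15 medium, where 61.6% were. Of the 10 members kept without any 1 library, 9 were tested in each medium. Among these 9 there were 4 in Schneider's medium (44.4%), 2 lower and 2 higher in 10 μM heme. In L-15 medium there were 5 (55.6%), all lower in 10 μM heme. The exact test of edgeR called 0 members in Schneider's medium and 2 in L-15 medium, where 23.7% and 30.5% of all genes were called, and DESeq2 called 2 in each, where 27.7% and 33.4% were. The rule itself asked for small heme ratios here, and the 1 CPM it adds shrinks the ratios of genes with few counts. Fitted log2 fold changes of 10 μM over 0 μM heme ran from -0.844 to 0.986 in Schneider's medium. In L-15 medium they ran from -1.492 to 2.463. The highest was that of AAEL007831, whose centred ratio there was 0.3896 at a mean of 0.4187 CPM.

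A20 cells were not used to choose the genes, so they give a separate view of the same members when serum is withdrawn. No member was called in 0 μM heme against FBS, where 0.433% of all 12249 genes tested were. Among the 46 members tested, 33 had a negative and 13 a positive log2 fold change, with a median of -0.36 beside -0.012 over all genes. Of the 33, 15 belonged to the run of identifiers AAEL018671 to AAEL018688. The median of the run was -0.94. Among the other 30 members tested, 18 were negative and 12 positive, with a median of -0.13. Groups did not overlap for 13 members that were lower in 0 μM heme, where 28.9% of all genes were, and for 9 that were higher, where 28.2% of all genes were. At an unadjusted p under 0.05 there were 14 members, 8 lower and 6 higher in 0 μM heme, or 30.4%, where 41.5% of all genes were. The exact test of edgeR and DESeq2 each called 4, where 9.21% and 12.5% of all genes were called. Those 4 were AAEL002834 and AAEL014054, lower in 0 μM heme, and AAEL020779 and AAEL026808, higher. Of the 9 A20 libraries left out in turn, only the absence of 10 μM heme library 1 changed the count of quasi-likelihood calls, to 1, AAEL002834.

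AAEL002834 had the lowest log2 fold change of any member tested in A20 cells in 0 μM heme against FBS. It had 26.43, 17.56 and 17.86 CPM in 0 μM heme, against 98.49, 131.9 and 146.7 CPM with FBS, 6.10-fold lower and with no overlap between groups (log2 fold change -2.61 ± 0.29 SE, edgeR quasi-likelihood adjusted p = 0.000383). With 10 μM heme it had 126.7, 66.55 and 70.57 CPM, a log2 fold change of 2.09 ± 0.28 (SE) over 0 μM heme (edgeR quasi-likelihood adjusted p = 0.000155), with every library above those of 0 μM heme. Both adjusted p-values missed the threshold of 0.0001, and without the filter on low counts both passed it. AAEL014054 had 26.76, 20.73 and 23.5 CPM in 10 μM heme, 24.66, 22.18 and 19.75 in 0 μM heme, and 51.5, 37.97 and 67.58 with FBS. Both serum-free groups of this gene lay below the FBS group and overlapped each other, with a log2 fold change of 0 μM heme over FBS of -1.24 ± 0.20 (SE, edgeR quasi-likelihood adjusted p = 0.0023).

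The S-adenosylmethionine decarboxylase gene AAEL001176 was ordered by treatment in A20 cells, as in L-15 but not in Schneider's medium in Aag2 cells. It had 142.6, 154.1 and 212.6 CPM in 10 μM heme, 303.3, 311.3 and 317.1 in 0 μM heme, and 598.2, 521.5 and 378.8 with FBS. The groups did not overlap, but no comparison passed the threshold: the log2 fold change of 0 μM heme over FBS was -0.69 ± 0.19 (SE, edgeR quasi-likelihood adjusted p = 0.0235) and that of 10 μM heme over FBS -1.56 ± 0.19 (SE, edgeR quasi-likelihood adjusted p = 0.000129). The exact test and DESeq2 called it lower in 10 μM heme than with FBS.

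Heme was also added to serum-free A20 cells. In 10 μM against 0 μM heme, 6 of the 46 members were called, all higher, or 13%, below the 18.9% of all genes called in either direction, where 9.79% of all genes were called higher and 9.14% lower. Groups did not overlap for 23 members that were higher, where 31.4% of all genes were, and for 8 that were lower, where 39.7% of all genes were. Of these 23, 14 belonged to the run of identifiers, and among the other 30 members tested 9 were higher without overlap, or 30%. AAEL001795, the putative orfY, had 95.53, 110.3 and 111.4 CPM in 10 μM heme, against 23.1, 22.95 and 23.76 CPM in 0 μM heme, 4.54-fold higher (log2 fold change 2.18 ± 0.16 SE, edgeR quasi-likelihood adjusted p = 7.42e-06). With FBS the same gene had 38.1, 25.81 and 25.36 CPM, so that the 10 μM heme libraries were above all others. AAEL025015 had 43.43, 71.78 and 60.19 CPM in 10 μM heme, against 16.75, 15.65 and 16.01 CPM in 0 μM heme, 3.62-fold higher (edgeR quasi-likelihood adjusted p = 1.6e-05). The FBS libraries of AAEL025015, at 21.88, 21.1 and 22.56 CPM, were also above every library of 0 μM heme. AAEL018687, of the run of identifiers, had 115.7, 284.7 and 251.4 CPM in 10 μM heme, against 25.04, 33.45 and 30.83 CPM in 0 μM heme (log2 fold change 2.87 ± 0.30 SE, edgeR quasi-likelihood adjusted p = 3.23e-05). AAEL005610, AAEL018684 and AAEL021686, at lower levels, were the other members called, with log2 fold changes of 2.79, 2.41 and 2.04.

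These calls depended on single libraries and on the scaling. The 10 μM heme library 1 stood apart over all genes, where a chi-square comparison of counts, divided by its degrees of freedom, gave 160.4 against library 2 and 116.6 against library 3, beside 23.17 between libraries 2 and 3. Library 1 also stood apart, by less, in the other A20 groups. With FBS the values were 36.53 and 40.8, beside 11.15 between libraries 2 and 3. In 0 μM heme they were 37.43 and 44.16, beside 10.97. Without 10 μM heme library 1, 13 members were called. Without any 1 FBS library 3 were called, without 10 μM heme library 2 there were 2, without 0 μM heme library 1 or 10 μM heme library 3 there was 1, and without 0 μM heme library 2 or 3 there were 0. TMM scaling factors were 0.685 to 0.834 in the 10 μM heme libraries and 1.20 to 1.22 in those of 0 μM heme, and scaling by library size alone shifted the median log2 fold change of all genes by -0.696. Under that scaling 3 members were called higher, AAEL001795, AAEL018687 and AAEL025015, and 4 were called lower, AAEL001176, AAEL005633, AAEL008842 and AAEL026352. AAEL001795, AAEL018687 and AAEL025015 were thus called higher under both scalings, while the calls of AAEL005610, AAEL018684 and AAEL021686 were lost under library size alone.

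All 16 members of the run of identifiers had a positive log2 fold change of 10 μM over 0 μM heme in A20 cells, from 0.73 to 4.85 with a median of 3.69, of which 2 were called. Their levels in A20 cells ranged widely, in a table normalized separately from those of Aag2 cells. AAEL018680 had 176.7, 438.5 and 396.6 CPM in 10 μM heme, 177.3, 200.8 and 232.1 in 0 μM heme, and 246.2, 258.4 and 259.8 with FBS. AAEL018688 had 5.04, 19.21 and 17.67 CPM in 10 μM heme, 0.4509, 0.6259 and 0.3645 in 0 μM heme, and 0.7357, 0.4863 and 0.1456 with FBS. Among the other 30 members tested, 16 had a positive and 14 a negative log2 fold change of 10 μM over 0 μM heme, with a median of 0.06.

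Against FBS, 3 of the 46 members were called in 10 μM heme in A20 cells, all higher, where 4.47% of all genes were called higher and 6.38% lower. They were AAEL001795 (log2 fold change 1.83 ± 0.16 SE, edgeR quasi-likelihood adjusted p = 2.41e-05), AAEL025015 (1.42 ± 0.16 SE, edgeR quasi-likelihood adjusted p = 9.03e-05) and AAEL021686 (1.63 ± 0.19 SE, edgeR quasi-likelihood adjusted p = 8.22e-05). AAEL021686 had 18.14, 20.85 and 20.05 CPM in 10 μM heme, 5.099, 4.242 and 4.982 in 0 μM heme, and 6.461, 4.826 and 7.715 with FBS. Without 10 μM heme library 1, 9 members were called, without FBS library 1 or 0 μM heme library 1 there was 1, and without any 1 of the other 6 libraries there were 0. Library size alone called none of the 3 and called 2 others, AAEL001176 and AAEL008842, both lower in 10 μM heme.

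AAEL008842 was low in A20 cells and fell further with heme. It had 1.649, 0.8509 and 1.891 CPM in 10 μM heme, 5.064, 6.641 and 6.44 in 0 μM heme, and 8.733, 9.951 and 6.623 with FBS, with the log2 fold change of 10 μM heme over FBS at -2.51 ± 0.30 (SE, edgeR quasi-likelihood adjusted p = 0.00011). This missed the threshold, and the exact test and DESeq2 called it. In Aag2 cells the same gene had 29.53 to 41.13 CPM in 10 μM heme, 31.04 to 37.17 CPM in 0 μM heme and 41.33 to 54.52 CPM with FBS in Schneider's medium, with overlapping serum-free groups.

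**Figure D4:**
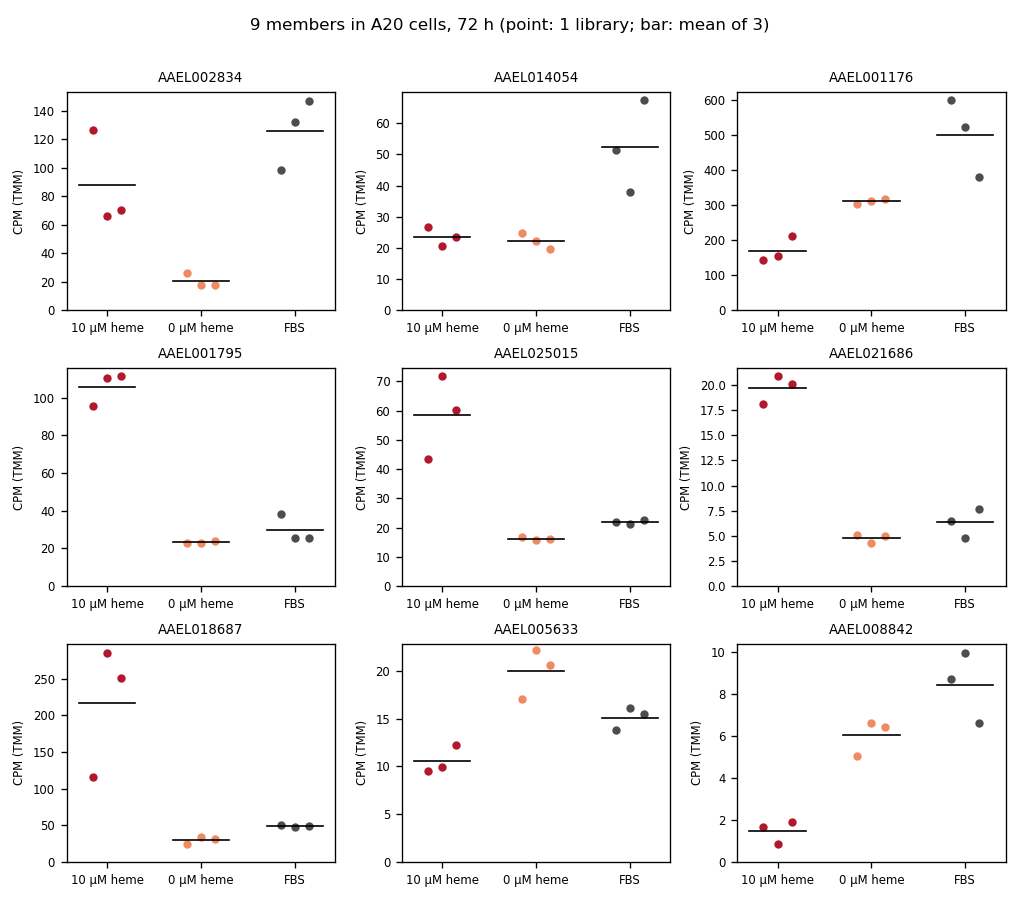
CPM after TMM scaling (y axis, from 0) of 9 members in A20 cells at 72 h, with 1 panel per gene and columns for 10 μM heme, 0 μM heme and FBS; each point is 1 library and each bar the mean of 3. AAEL002834 is lowest in 0 μM heme, AAEL014054 is lower in both serum-free groups than with FBS, AAEL001176 is lowest in 10 μM heme and highest with FBS, and AAEL001795, AAEL025015, AAEL021686 and AAEL018687 are highest in 10 μM heme.

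Some of the best-counted members of Aag2 cells were scarcely detected in A20 cells, in tables that were normalized separately. AAEL025170 had 0.2547 to 0.6078 CPM over the A20 libraries. AAEL014523, the convertase, had 0 to 1.838 CPM there, and AAEL019461 had 0.9916 to 5.025 CPM. Their log2 fold changes of 0 μM heme over FBS in A20 cells were -0.15 ± 0.41 (SE) for AAEL025170, 0.88 ± 0.54 (SE) for AAEL014523 and 0.67 ± 0.44 (SE) for AAEL019461, and none was called.

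The experiment at 48 h asked whether 20 μM heme added on top of serum moved the members, again in libraries that the rule did not use. None of the 41 members tested was called, where 0.766% of all 12007 genes tested were, and the median log2 fold change was -0.085 beside 0.012 over all genes. Groups did not overlap for 10 members that were lower with 20 μM heme, where 20.1% of all genes were, and for 5 that were higher, where 20.4% of all genes were. At an unadjusted p under 0.05 there were 12 members, 9 lower and 3 higher with 20 μM heme, or 29.3%, where 35% of all genes were. The exact test of edgeR called 2 members and 5.46% of all genes, and DESeq2 called 3 members and 9.22% of all genes. AAEL001176 came closest, with 101.1, 106.0 and 96.04 CPM in 20 μM heme, against 146.6, 143.3 and 154.4 CPM with FBS alone. Its groups did not overlap, and its level was 1.47-fold lower (log2 fold change -0.55 ± 0.047 SE, edgeR quasi-likelihood adjusted p = 0.000144), which the exact test, DESeq2 and the fit without a filter called.

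AAEL020101 had 25.86, 26.48 and 28.53 CPM in 20 μM heme, against 38.11, 35.76 and 47.02 CPM with FBS alone, with no overlap (log2 fold change -0.58 ± 0.10 SE, edgeR quasi-likelihood adjusted p = 0.00447). The exact test and DESeq2 called it. AAEL025170 had 79.53, 84.29 and 78.03 CPM in 20 μM heme, against 95.78, 94.89 and 111.3 CPM with FBS alone, 1.25-fold lower and called by DESeq2. AAEL027408, the member with the highest level in both media, had 255.6, 247.4 and 244.5 CPM in 20 μM heme and 250.1, 255.7 and 251.7 CPM with FBS alone. Those groups overlapped, and the log2 fold change was -0.02 ± 0.033 (SE). AAEL002834 had 66.91, 66.29 and 67.82 CPM in 20 μM heme, against 55.96, 63.19 and 58.14 CPM with FBS alone, a log2 fold change of 0.18 ± 0.052 (SE, edgeR quasi-likelihood adjusted p = 0.038), with groups that did not overlap.

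**Figure D5:**
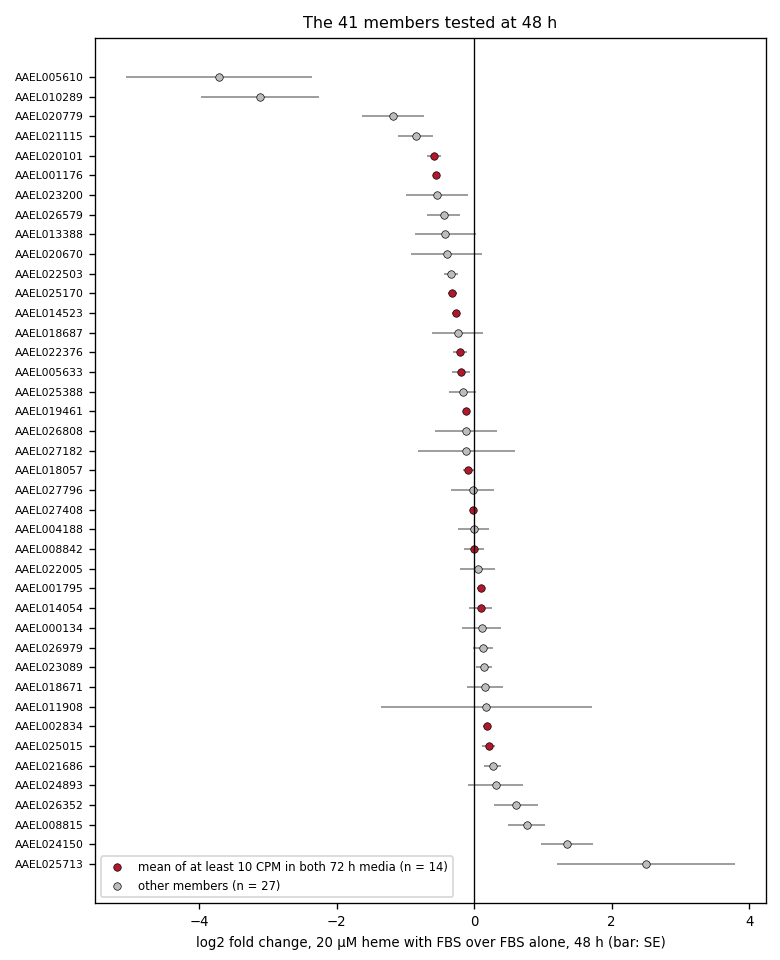
Log2 fold change of 20 μM heme with FBS over FBS alone in Aag2 cells at 48 h (x axis, bars are SE) for the 41 members tested (y axis, ordered by value). The 14 red points, members with a mean of at least 10 CPM in both 72 h media, lie between -0.58 and 0.21, and the wide bars belong to members with few counts or with counts in 1 library, such as AAEL005610 at -3.72.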

How the data were processed

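The authors aligned paired reads to AaegL5 with HISAT2 2.1.0, filtered alignments on mapping quality (SAMtools) and obtained transcript counts with bedtools 2.19.1. Strand use is not given in the sources used here. The deposited values are raw counts without normalization, for 19712 identifiers in 4 tables. The members and the gene lists were chosen with earlier results of these data known.

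Each table was fitted on its own in R 4.3.3 with edgeR 4.0.16 (filterByExpr, TMM, quasi-likelihood F test, Benjamini-Hochberg over all genes of the table, threshold 0.0001). The study's methods name the exact test of edgeR at this threshold. The SE is the size of the log2 fold change divided by the square root of F. Printed CPM are counts relative to depth after TMM scaling, and the ratios of the rule use library totals with 1 CPM added. Alternatives were the exact test, DESeq2 1.42.0, other scalings, filters, thresholds and pseudocounts, a replicate block, and each library left out in turn. The fit was checked on simulated data.

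Named genes were the 10 members with the lowest summed serum ratios among those of at least 10 CPM in both media, called members of at least 10 CPM in A20 cells or at 48 h, and genes next to the limits. Other genes named were chosen after their values were seen. Product names came from a shortened copy of the annotation sheet (1547 identifiers, 773 of them named), so the 24 lists were void and the cell lines were not checked against markers. Figures were drawn with matplotlib.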

Additional observations from a re-analysis of the deposited data

Results flagged for a closer look

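Of the 29 members with every 0 μM heme library below every FBS library in both Aag2 media, 7 were reversed in A20 cells. In these 7 every 0 μM heme library was above every FBS library, as for 28.2% of all genes tested in A20 cells. The count of 7 of 29 is not above that share. Of the 7, 6 passed the filter on low counts in A20 cells. AAEL005633 had 17.1, 22.22 and 20.66 CPM in 0 μM heme, against 13.79, 16.12 and 15.47 CPM with FBS, in A20 cells, a log2 fold change of 0.403. AAEL020101 had 65.8, 66.8 and 70.12 CPM in 0 μM heme, against 63.88, 55.74 and 54.99 CPM with FBS, a log2 fold change of 0.215. AAEL027408 had 272.2, 260.5 and 263.8 CPM in 0 μM heme, against 252.7, 244.0 and 240.8 CPM with FBS, a log2 fold change of 0.111. The other 3 tested were low in A20 cells. AAEL014523, the convertase gene, had 1.838, 1.46 and 1.215 CPM in 0 μM heme, against 0.9596, 0.7482 and 0.7278 CPM with FBS, a log2 fold change of 0.882. AAEL020779 had 4.578, 3.721 and 3.342 CPM in 0 μM heme, against 1.439, 1.197 and 1.346 CPM with FBS, a log2 fold change of 1.542. AAEL026979 had 2.636, 1.982 and 2.491 CPM in 0 μM heme, against 1.12, 1.422 and 1.31 CPM with FBS, a log2 fold change of 0.884. AAEL013388, not tested in A20 cells, had 4, 4 and 11 counts in 0 μM heme, against 0, 2 and 0 counts with FBS. None of the 6 tested was called by the quasi-likelihood test in A20 cells, and the difference between the lines was not tested. The basal medium changed with serum in A20 cells only, so line and medium cannot be told apart here.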

How the results depend on the processing

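The rule gave 64 genes, 16 with a pseudocount of 5 CPM, 17 with at least 5 CPM in both tables, 30 with limits of 0.5 for serum and 0.3 for heme, and 29 with groups that do not overlap in both media, an alternative chosen after seeing the data, as was the absence of 2 libraries. Leaving out 1 library gave 48 to 72.

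In A20 cells, 0 μM heme against FBS gave 4 calls by the exact test, 4 by DESeq2, 1 with no filter, 7 at an adjusted p of 0.05 and 0 to 1 with 1 library left out. For 10 μM against 0 μM heme (6) these were 26, 25, 10, 33 and 0 to 13, and for 10 μM heme against FBS (3) they were 14, 14, 8, 26 and 0 to 9. At 48 h they were 2, 3, 1, 9 and 0. For 0 μM heme against FBS in Schneider's medium (5) the exact test and DESeq2 gave 11 each, an adjusted p of 0.05 gave 29, and 1 library left out 1 to 5. The same contrast in L-15 medium (11) gave 19 by the exact test and 19 by DESeq2, library size alone 6, an adjusted p of 0.05 gave 34, and 1 library left out 7 to 11. For 10 μM against 0 μM heme, Schneider's medium (0) gave 2 by DESeq2, 2 by library size alone and 7 at 0.05, and L-15 medium (0) gave 2 by the exact test, 2 by DESeq2, 1 with no filter, 10 at 0.05 and 0 to 1 with 1 library left out. The cause was not tested. Library size alone moved the median log2 fold change of all genes by 0.246 for 0 μM heme against FBS in L-15 medium, 0.116 in A20 cells and -0.04 in Schneider's medium.

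The study names no pairing of replicates, and same-number correlations were -0.044 to 0.125. In A20 cells those between FBS and 0 μM heme were 0.125, 0.062 and 0.047, beside -0.11 to 0.076 for different numbers. Pairing in A20 cells was not tested beyond these values and a replicate block. With the replicate block the calls were 1 for 10 μM against 0 μM heme and 0 for 10 μM heme against FBS in A20 cells, and 1 for 0 μM heme against FBS in Schneider's medium. For single named genes, 631 values under alternatives kept direction and side of the threshold, 20 passed it newly, 51 no longer passed it and 0 reversed. Counts in single figures limit most members under 5 CPM.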

Other observations

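AAEL011908, a member with few counts in most libraries, had in each experiment high counts in 1 or more libraries beside near-empty ones of the same group. It had 51, 5 and 6 counts with FBS in Schneider's medium, 1, 2 and 416 with FBS in L-15 medium and 740, 1 and 0 with FBS in A20 cells. At 48 h it had 4, 691 and 70 counts in 20 μM heme, against 40, 4 and 592 with FBS alone. AAEL005610, with 583, 41 and 49 counts with FBS in Schneider's medium at 72 h, had 51, 61 and 42 counts in 20 μM heme at 48 h, against 78, 39 and 1715 with FBS alone.

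AAEL003840, AAEL016310 and AAEL018841 had near-equal counts in the libraries where they were highest, 95, 93 and 92 in Schneider FBS library 1 and 48, 44 and 44 in L-15 FBS library 1. Whether they share reads was not tested.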
